A study of Mus musculus with 8 samples.

Results

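The genes described here are transcription factors that make and maintain macrophages (Spi1, Maf, Cebpa, Cebpb and Cebpd), the receptor of the macrophage growth factor (Csf1r) and marker genes of the mature cell (Adgre1, Itgam and Lyz2). They were found by their Entrez gene numbers among the 24011 genes of the series that have exactly 1 symbol, and 8 of the 9 had values; Lyz2 was not analysed here. The cells were primary macrophages grown for 7 days from the bone marrow of wild-type mice aged 8 to 10 weeks, in medium with 30% of the supernatant of L cells, which supplies M-CSF. They were reseeded at 150000 cells per well with 15% of that supernatant, and on the next day 4 samples had received hepcidin at 10 µg/ml for 1 h and 4 samples PBS, before total RNA was hybridised to Affymetrix whole-transcript arrays. Both groups therefore carried the ligand of the CSF1 receptor in their medium. Each group has samples numbered 1, 2, 3 and 4 in the titles, with no word on whether a number is an animal, a culture or a day, and the p-values therefore cover the variation among these 8 samples alone, part of which may be technical.

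PU.1, the protein of Spi1, is an ETS family factor that opens regulatory DNA in myeloid precursors and binds the Csf1r gene. C/EBP factors are basic leucine zipper proteins that act beside it: C/EBPα is needed for the step from early progenitors to granulocytes and monocytes, whereas C/EBPβ and C/EBPδ are made in larger amounts when mature cells meet inflammatory signals. c-Maf, the protein of Maf, is another leucine zipper factor, which limits the self-renewal of macrophages. Hepcidin is the liver hormone that lowers iron export by acting on ferroportin.

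Within 1 h of hepcidin, the mRNA of Cebpb was higher and that of Maf lower in all 4 same-number pairs. Of all genes, 5.69% were higher and 5.95% lower in all 4 pairs. Spi1, Cebpa, Cebpd, Csf1r, Adgre1 and Itgam went both ways across the pairs. Cebpb differed by 0.34 ± 0.13 and Maf by -0.19 ± 0.33 on the log2 scale (hepcidin minus PBS, ± SE from limma, n = 4 in each group). Neither reached the threshold of 0.05 after adjustment over the whole table. The titles' numbers separated the levels of Maf far more than the treatment did: the means of both arrays of a number lay up to 1.41 apart on the log2 scale, a ratio of 2.66. All values are log2 values made with RMA, and a difference of 1 is a doubling. Brightness depends on the probes of a gene as well as on its mRNA, so levels are not ranked between genes.

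**Figure D1:**
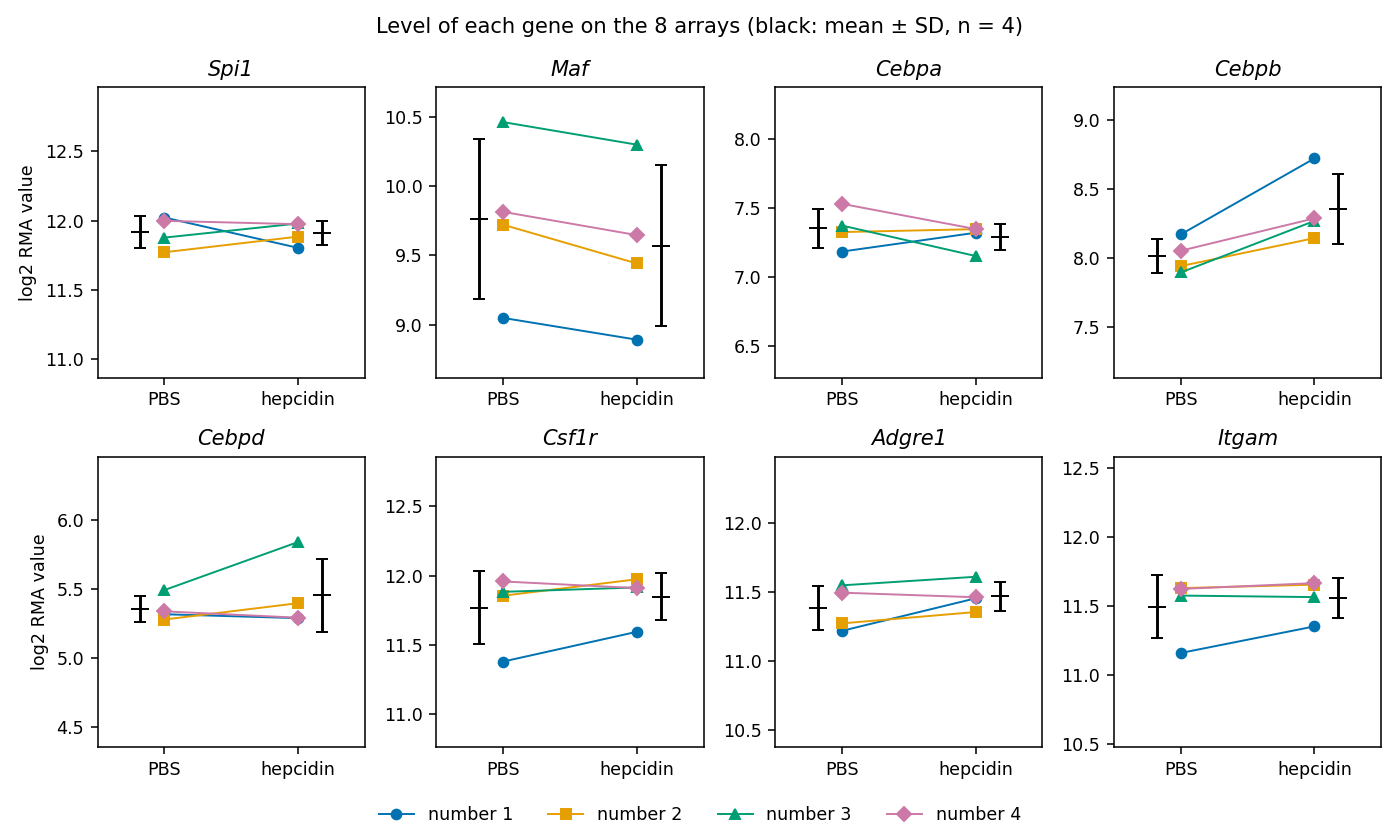
Log2 RMA values (vertical axis, each panel spanning the same number of log2 units) of the 8 genes with PBS and with hepcidin. Lines join arrays with the same number, and the black marks give the mean ± SD of the 4 arrays of a group. The lines of Cebpb all go up and those of Maf all go down, and those of Maf start from 9.05 to 10.46.

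Defining genes of macrophages were above background, Mertk by the least. With PBS, Cd68 stood at 13.12 ± 0.05, Cd14 at 11.86 ± 0.14, Csf1r at 11.77 ± 0.26, Itgam at 11.50 ± 0.23, Adgre1 at 11.39 ± 0.16, Fcgr1 at 10.43 ± 1.12 and Mertk at 8.30 ± 0.35 (mean ± SD, n = 4). As a measure of background, 32 markers of B cells, T and NK cells, endothelium and the erythroid line had a median of 4.03 with PBS and a 90th percentile of 5.46, and the highest was Kdr at 7.53. The median value of an array was 4.87 to 4.95, and any pair of arrays correlated at 0.989 to 0.996 across genes, which are not independent replicates. Both arrays numbered 1 stood apart in markers of neutrophils and monocytes. Of 14 neutrophil and precursor genes, 6 lay above the 90th percentile of background. The mean level of this list was 4.72 with PBS and 4.56 with hepcidin on number 1, against 5.48 to 5.85 on the other 6 arrays. The 5 measured monocyte genes stood at 5.98 and 6.20 on number 1 against 7.24 to 7.43. In bulk RNA, fewer cells of a type and less RNA per cell cannot be told apart. The part of these cells in the results below was not tested.

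Spi1 was well above background, between 11.77 and 12.02 on all arrays. It stood at 12.02, 11.77, 11.88 and 12.00 on the PBS arrays numbered 1 to 4 and at 11.80, 11.88, 11.98 and 11.97 on the hepcidin arrays. The groups overlapped throughout, with 2 of 4 pairs higher. The difference was -0.01 ± 0.09 (limma, adjusted p 1), with a 95% confidence interval from -0.20 to 0.19. Pair 1 fell by 0.22 on the log2 scale, and the other pairs lay between -0.02 and 0.11. The related ETS factors Spib, known from B cells and plasmacytoid cells, and Spic, known from iron-recycling macrophages, stood at 3.17 and 4.67 with PBS, below the 90th percentile of background. Spic differed by 0.195 ± 0.185 and Spib by 0.15 ± 0.10, each with an adjusted p of 1 in limma.

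Maf stood at 9.05, 9.72, 10.46 and 9.82 on the PBS arrays numbered 1 to 4. With hepcidin it stood at 8.89, 9.44, 10.30 and 9.65. Each hepcidin array lay just below its partner while the ranges of the groups overlapped almost fully. The pair differences were -0.16, -0.28, -0.16 and -0.17. In limma without the pairing the SE was 0.33 and the p before adjustment 0.569. With the replicate number as a fixed block the SE was 0.07, the 95% confidence interval ran from -0.35 to -0.03 and limma gave an unadjusted p of 0.026, with an adjusted p of 0.967. With the number as a random block, which uses 1 correlation estimated over all genes, the SE was 0.24, the unadjusted p 0.439 and the adjusted p 1 in limma. Without the pairing, the sign of the difference turned when the PBS array numbered 3 was left out (0.042) or the hepcidin array numbered 1 (0.035), each of which left an array without its partner. Without both arrays numbered 1 the paired difference was -0.20 ± 0.08 (limma with the replicate block, adjusted p 0.903).

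Among the C/EBP genes, Cebpb gave the largest difference of the 8 genes. Its PBS levels were 8.17, 7.94, 7.90 and 8.05 and its hepcidin levels 8.72, 8.14, 8.27 and 8.29 on numbers 1 to 4. The groups overlapped by a single array, since the PBS array numbered 1 lay above the hepcidin array numbered 2. The pair differences were 0.55, 0.20, 0.37 and 0.23, and the mean difference of 0.34 corresponds to a ratio of 1.26. Limma gave a 95% confidence interval from 0.06 to 0.62 with an unadjusted p of 0.0237, and the adjusted p was 1. With the replicate block the SE was 0.08, the unadjusted p 0.00397 and the adjusted p 0.784 in limma. The hepcidin array numbered 1 carried the highest level: without it the difference was 0.22 ± 0.10 with an unadjusted p of 0.0508 in limma, and without both arrays numbered 1 it was 0.27 ± 0.09 (unadjusted p 0.0165, adjusted p 1). Leaving out the PBS array numbered 2 or 3 gave unadjusted p-values of 0.0567 and 0.0628.

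Cebpa, the factor of the early lineage step, stood at 7.18, 7.32, 7.37 and 7.53 with PBS and at 7.32, 7.35, 7.15 and 7.35 with hepcidin. The groups overlapped, and the difference was -0.06 ± 0.09 (95% confidence interval -0.27 to 0.15, limma, adjusted p 1). Cebpd stood at 5.32, 5.28, 5.49 and 5.34 with PBS and at 5.29, 5.40, 5.84 and 5.29 with hepcidin. Its PBS mean of 5.36 lay just under the 90th percentile of the background markers, where ratios on such a scale are compressed. The difference of 0.10 ± 0.13 (95% confidence interval -0.18 to 0.38, adjusted p 1 in limma) rested on number 3, with 0.35 in that pair and -0.05 to 0.12 in the others, and was -0.03 without the hepcidin array of that number. The level of Cebpb relative to Cebpa on the same array was higher with hepcidin in each pair, by 0.41, 0.18, 0.59 and 0.42 on the log2 scale (mean 0.40 ± 0.17, SD, n = 4 pairs). Relative to Cebpd it was higher by 0.58, 0.08, 0.025 and 0.28 (mean 0.24 ± 0.25). Both restate the difference of Cebpb, which was known when they were chosen, and have no test.

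The promoters of Cebpb and Cebpa are shown to set the gene with the largest difference of the 8 beside a relative. Capitals mark letters that match the core of the cAMP response element (TGACG) or a TATA box (TATAAA) on either strand. Both are the 250 bases before the annotated start in RefSeq on GRCm38.p6, both on the plus strand, at chr2:167688665-167688914 for Cebpb and chr7:35119043-35119292 for Cebpa.
Cebpb: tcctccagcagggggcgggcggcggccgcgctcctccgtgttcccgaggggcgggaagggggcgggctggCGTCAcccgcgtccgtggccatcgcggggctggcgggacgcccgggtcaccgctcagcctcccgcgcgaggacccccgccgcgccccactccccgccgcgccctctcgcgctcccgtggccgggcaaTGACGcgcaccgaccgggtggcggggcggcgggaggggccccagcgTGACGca
Cebpa: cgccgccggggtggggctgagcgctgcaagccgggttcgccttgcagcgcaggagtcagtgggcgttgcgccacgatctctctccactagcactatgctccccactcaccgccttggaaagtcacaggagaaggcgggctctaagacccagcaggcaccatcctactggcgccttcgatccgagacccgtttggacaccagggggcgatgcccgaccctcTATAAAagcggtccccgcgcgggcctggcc

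The Cebpb window held TGACG at 3 places, on the minus strand from 180 to 176 bases before the start and on the plus strand from 53 to 49 and from 7 to 3 bases before it. The Cebpa window held none and had TATAAA from 30 to 25 bases before the start. Of all 32851 promoters of this length, 17.8% held TGACG and 12.4% TATAAA on either strand. Neither window held the C/EBP motif TTGCNNAA (9.6% of promoters), the kappa B motif (1.4%), the STAT motif TTCNNNGAA (7.0%), the PU.1 core GAGGAA (23.3%) or CCAAT (33.8%), and no matches overlapped. G and C made up 81.6% of the Cebpb window and 66.4% of the Cebpa window, against a median of 52.4% over all promoters. A match is a description of letters and not of binding.

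Among the other C/EBP relatives, Cebpg, which encodes a short partner that lacks an activation domain, stood at 8.59 ± 0.34 with PBS and differed by -0.025 ± 0.211. Ddit3, the stress-induced C/EBP homologue CHOP, stood at 8.00 ± 0.71 and differed by -0.01 ± 0.43. The granulocyte factor gene Cebpe, at 4.70 ± 0.10 below the 90th percentile of background, differed by -0.11 ± 0.12. All had an adjusted p of 1 in limma, and each was higher with hepcidin in 2 of 4 pairs. Among 15 measured partners and regulators of C/EBP proteins, 5 lay above 0 and the median difference was -0.03, with 0 at an unadjusted p under 0.05 in limma with or without the block. The members with the smallest unadjusted p were Trib2, a pseudokinase that targets C/EBPα for degradation, at -0.17 ± 0.14 and a background level of 3.94 with PBS, and the acetyltransferase gene Ep300 at -0.125 ± 0.108 (adjusted p 1 for both in limma).

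Csf1r, the receptor tyrosine kinase through which M-CSF keeps macrophages alive, stood at 11.38, 11.85, 11.88 and 11.96 with PBS and at 11.59, 11.97, 11.91 and 11.91 with hepcidin. Both arrays numbered 1 were the lowest of their group, and apart from them the groups shared one narrow range. The difference was 0.08 ± 0.14 (95% confidence interval -0.23 to 0.39, limma, adjusted p 1), with pair differences of 0.22, 0.12, 0.03 and -0.05. The sign turned without the PBS array numbered 1 (-0.05), which leaves its low partner in the other group, and not without both arrays numbered 1 (0.03). The ligand gene Csf1 stood at 7.70 ± 0.38 with PBS and differed by 0.16 ± 0.23, higher in 3 of 4 pairs. The gene of the other ligand, Il34, stood at 4.19 ± 0.21, near the background median, and differed by 0.17 ± 0.11 (adjusted p 1 for both in limma).

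Of the 27 measured ligands, related receptors and proximal signalling genes of the CSF1 receptor, 20 lay above 0 with a median of 0.05, against a median of 0.00 over all genes. In limma 0 passed an adjusted p of 0.05. At an unadjusted p under 0.05, 0 were higher and 1 was lower (against 2.86% of all genes in either direction), Flt3, the receptor gene of a related growth factor, with -0.26 ± 0.12 at a PBS level of 5.04, within the background range. With the fixed replicate block, where 4.91% of all genes had such a p, Src joined Flt3. Src encodes a kinase that docks on the receptor and differed by -0.22 ± 0.08 (SE with the block, adjusted p 0.967 in limma). Without the block its SE was 0.11 and its unadjusted p 0.0786 in limma. Src was higher in 0 of 4 pairs, and 5.95% of all genes were lower in all 4. Its PBS level was 5.92, under the highest background marker at 7.53.

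Adgre1 encodes the adhesion receptor by which mouse macrophages are commonly recognised. It stood at 11.22, 11.27, 11.55 and 11.50 with PBS and at 11.46, 11.36, 11.61 and 11.46 with hepcidin. The groups overlapped, and the difference was 0.09 ± 0.10 (95% confidence interval -0.14 to 0.31, limma, adjusted p 1). Itgam encodes the CD11b chain of complement receptor Mac-1 and stood at 11.16, 11.63, 11.58 and 11.62 with PBS and at 11.35, 11.65, 11.56 and 11.67 with hepcidin. Apart from the low arrays numbered 1, its values lay between 11.56 and 11.67 in both groups. The difference was 0.06 ± 0.12 (95% confidence interval -0.21 to 0.34, limma, adjusted p 1), and it was -0.05 without the PBS array numbered 1 and 0.02 without both arrays of that number. Itgb2, the chain that pairs with it, stood at 12.10 ± 0.08 and differed by 0.068 ± 0.075 (unadjusted p 0.384 in limma). It was higher in 4 of 4 pairs, by only 0.002 in pair 2, as were 5.69% of all genes.

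The related adhesion receptor gene Adgre5 differed by 0.00 ± 0.08, and Adgre4, at a background level of 3.19, by -0.09 ± 0.11. Lyz1, a near copy of the lysozyme gene Lyz2 whose probes may not tell both apart, stood at 6.10 ± 0.29 and differed by 0.04 ± 0.16. All had an adjusted p of 1 in limma. Over 31 measured surface and effector genes of macrophages, 21 lay above 0, the median was 0.02 and the range -0.09 to 0.22, with 0 at an unadjusted p under 0.05 in limma with or without the block.

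The promoter of Itgam is shown because PU.1 is known to drive this gene in myeloid cells. Capitals mark matches of the PU.1 core GAGGAA on either strand. It lies on the plus strand at chr7:128062390-128062639 (RefSeq, GRCm38.p6), again the 250 bases before the start.
Itgam: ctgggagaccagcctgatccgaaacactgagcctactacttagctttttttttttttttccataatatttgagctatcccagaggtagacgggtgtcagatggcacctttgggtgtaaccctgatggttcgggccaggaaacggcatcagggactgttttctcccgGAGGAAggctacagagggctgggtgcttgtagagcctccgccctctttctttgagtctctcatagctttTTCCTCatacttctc

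GAGGAA matched from 84 to 79 bases before the Itgam start on the plus strand and from 15 to 10 bases before it on the minus strand, and none of the other 6 motifs matched. Promoters of 3 of the 8 genes were matched by symbol; those of Spi1, Maf, Cebpd, Csf1r and Adgre1 were not used here.

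**Figure D2:**
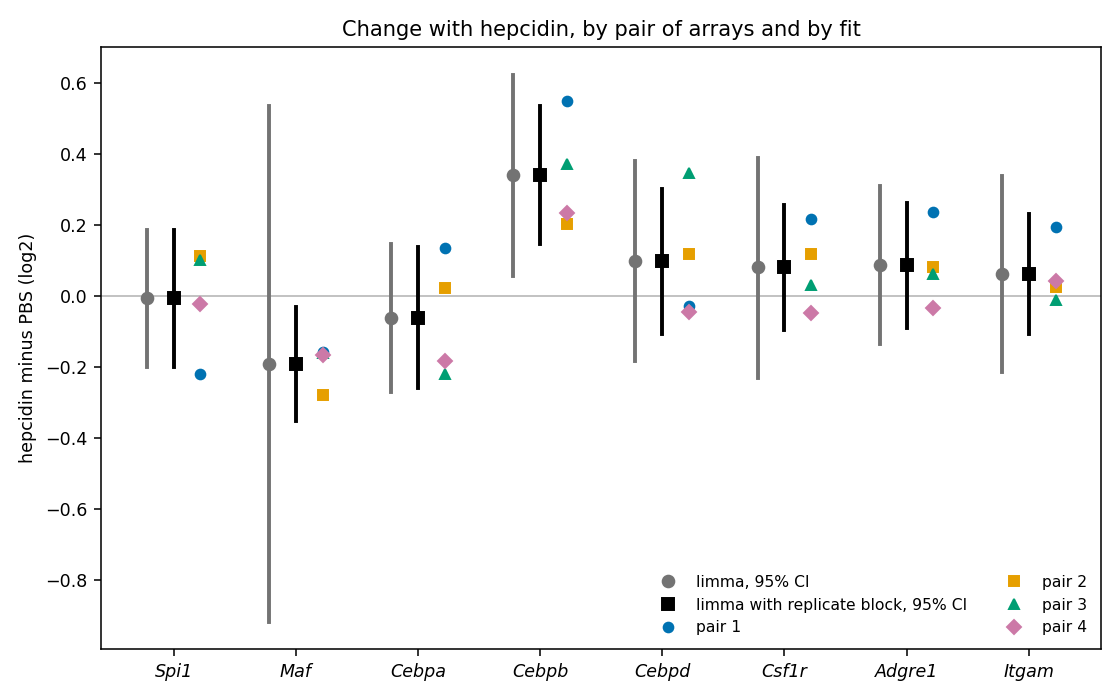
Hepcidin minus PBS on the log2 scale (vertical axis) for the 8 genes. Grey circles and black squares are the fitted difference with its 95% confidence interval in limma without and with the replicate block, and coloured points are the 4 pairs. The interval of Cebpb lies above 0 in both fits and that of Maf lies below 0 with the block, where it runs from -0.35 to -0.03 in place of -0.92 to 0.53.

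Over the 8 genes, the median difference was 0.07 and 5 lay above 0. In limma 0 passed an adjusted p of 0.05, and 1, Cebpb, had an unadjusted p under 0.05, as did 2.86% of all genes. With the fixed replicate block 0 passed, and 2 (Cebpb and Maf) had an unadjusted p under 0.05 in limma, against 4.91% of all genes. With the random block 1 did, Cebpb, and Maf was at an unadjusted p of 0.439. All pairs were higher with hepcidin for 1 gene, Cebpb (5.69% of all genes), and lower for 1 gene, Maf (5.95% of all genes). In 0 of the 8 genes did the groups not overlap, where this held for 1.88% of all genes. Counts of 1 or 2 of 8 genes give little to set against these shares, which cover dim genes too and were not taken at a like level. Among all genes 0 passed in limma, 1 passed with the replicate block, and 686 had an unadjusted p under 0.05.

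Of 28 other transcription factor genes of the myeloid and neighbouring lineages, 14 lay above 0 and the median was 0.02. None passed an adjusted p of 0.05 in limma (0 with and 0 without the block), and 1 had an unadjusted p under 0.05, as did 2.86% of all genes. That gene was Relb, an NF-kB subunit needed for dendritic cells, at 7.23 ± 0.15 with PBS and 7.65 ± 0.18 with hepcidin. Its groups did not overlap, which held for 1.88% of all genes. The difference of 0.42 ± 0.11 had an adjusted p of 1 without and 0.455 with the block in limma. With the block, Ets2 was the other at an unadjusted p under 0.05 in limma, against 4.91% of all genes. It encodes an ETS factor downstream of the CSF1 receptor. Its difference was 0.21 ± 0.08 (SE with the block), against an SE of 0.22 without the block. All 4 of 4 pairs were higher, as in 5.69% of all genes. Gfi1b, a factor of erythroid and platelet precursors, differed by 0.19 ± 0.10 at a PBS level of 5.37, within the background range.

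**Figure D3:**
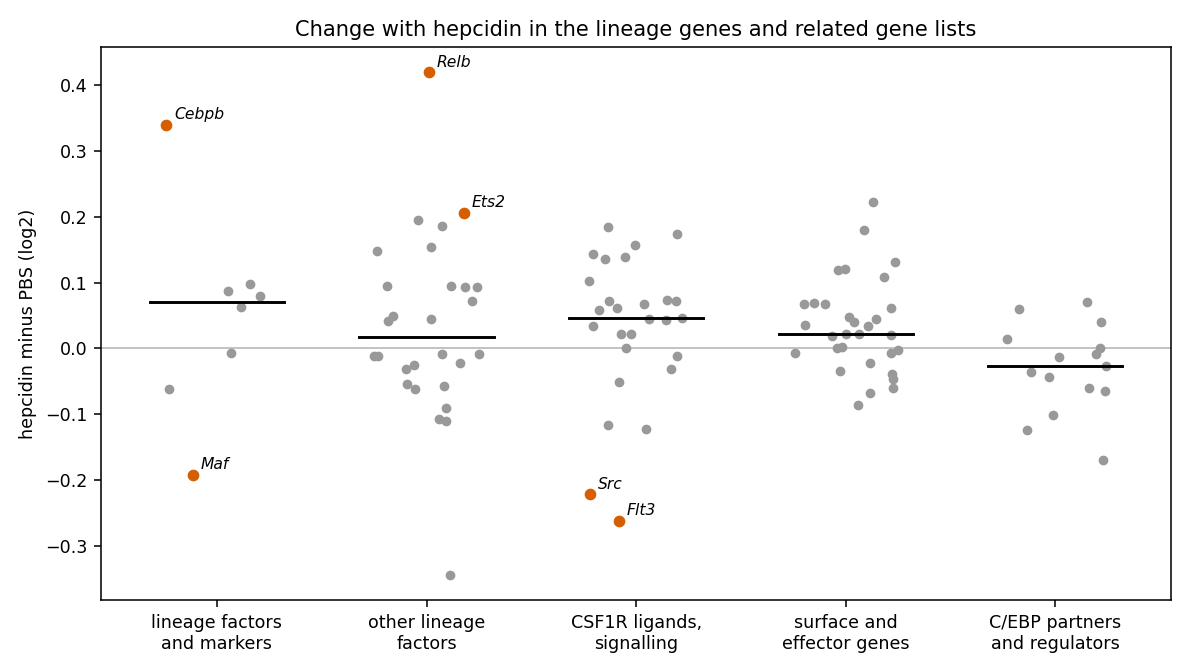
Hepcidin minus PBS on the log2 scale (vertical axis) for the 8 lineage genes and 4 related lists, each point a gene and each black bar the median of a list. Genes at an unadjusted p under 0.05 in limma with the replicate block are drawn in orange and named. They are 2 of the 8 lineage genes, Cebpb and Maf, and 4 genes of the other lists, with medians between -0.03 and 0.07. Of all genes, 4.91% had such a p.

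The replicate number was tested in the same data as a second factor, beside the treatment. Of the 8 genes, 1 differed between numbers at an adjusted p of 0.05 (limma F test), where 5.6% of all genes did. This was Maf, with an adjusted p of 0.00212 and means over both arrays of 8.97, 9.58, 10.38 and 9.73 on numbers 1 to 4. It was the lowest on number 1 and the highest on number 3 in both groups. The adjusted p was 0.0487 without both arrays numbered 1. Number held 96.2% of the sum of squares of Maf over the 8 arrays and treatment 3.5%. In Cebpb treatment held 49.4% and number 42.5%, and in the other 6 genes treatment held between 0.2% and 11.8%. Number has 3 degrees of freedom and treatment 1, so number takes the larger share on average where neither has an effect. Cebpb had an adjusted p of 0.207 between numbers in the limma F test.

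Csf1r and Itgam were both low on number 1, which minus the mean of the other numbers gave -0.43 and -0.36 on the log2 scale. Their adjusted p-values between numbers were 0.1 and 0.138 in the limma F test. Both passed when dimmer genes, with a mean under 6, were left out (0.0157 and 0.0241), and with trend and robust variance (0.00287 and 0.00547). Many other genes passed there too: 2894 and 2844 in these settings, against 1345 in the main fit. Without both arrays numbered 1 the adjusted p-values of Csf1r and Itgam were 0.974 and 0.845. Their levels correlated at 0.976 over the 8 arrays, the highest of the 28 correlations between the genes, which share arrays and numbers. The lowest was -0.617, between Maf and Cebpb. The neutrophil and monocyte lists were low on the same arrays, and their part in this was not tested.

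Csf1 and Ddit3 ran the other way. Csf1 stood at 8.20, 7.93, 7.28 and 7.71 on numbers 1 to 4 (limma F test, adjusted p 0.0223) and Ddit3 at 9.07, 7.69, 7.27 and 7.93 (adjusted p 0.003). Both were highest on number 1 and lowest on number 3, where Maf was the reverse. Among the relatives and ligands Lyz1 passed too (limma F test, adjusted p 0.048), lowest on number 1 at 5.87 and highest on number 4 at 6.425. In the related lists, 7 of 28 other transcription factor genes and 6 of 27 genes around the CSF1 receptor differed between numbers. So did 12 of 31 surface and effector genes and 3 of 15 C/EBP partners, against 5.6% of all genes. All genes include dim ones: among genes with a mean of 6 or more, predicted genes included and tested alone, 2894 differed. Without predicted genes, 8914 genes had such a mean, so these counts form no share. The list counts rest on the adjustment over all genes. The lists were not compared with genes of a like level. The C/EBP partners, named after their values were seen, were the stress-responsive genes Trib3 (adjusted p 0.00197, 8.69 on number 1 and 6.43 on number 3) and Atf4 (adjusted p 0.0227, 10.12 and 9.38) and Trib1, whose protein directs C/EBPα to degradation (adjusted p 0.00758, highest on number 4 at 7.55).

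**Figure D4:**
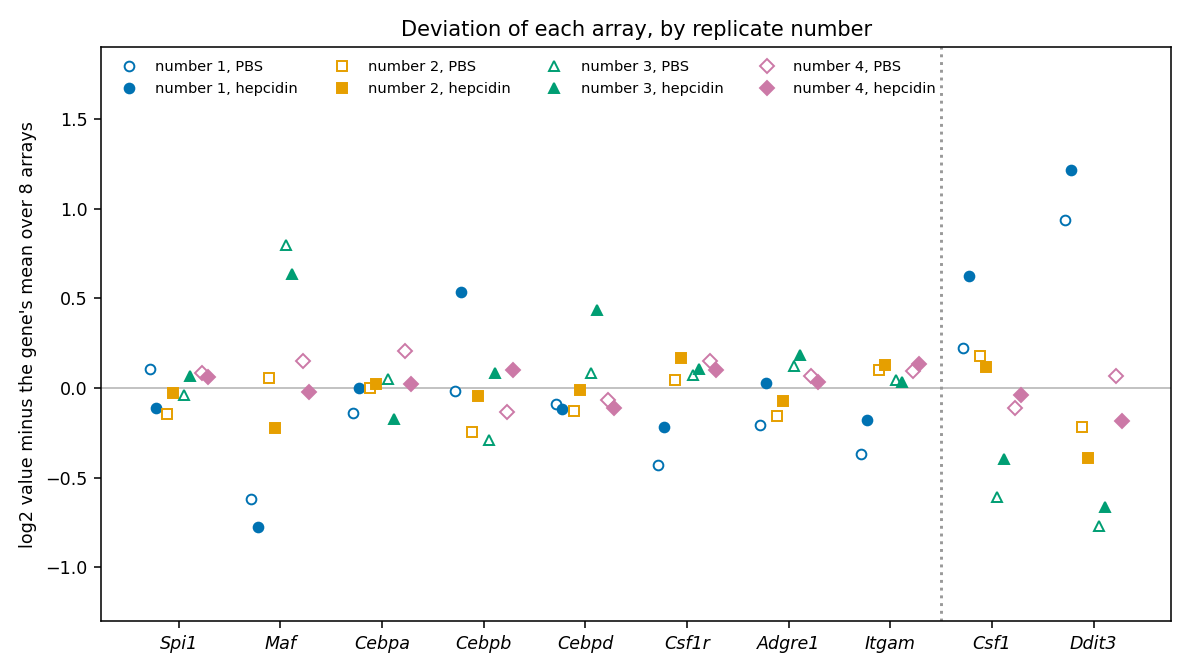
Log2 value of each array minus the mean of the gene over the 8 arrays (vertical axis) for the 8 genes and, right of the dotted line, Csf1 and Ddit3. Open symbols are PBS and filled symbols hepcidin, with one colour per replicate number. Maf was lowest on number 1 and highest on number 3, and Csf1 and Ddit3 were highest on number 1.

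Genes most like each one over the 8 arrays were taken from 8914 genes with a mean of 6 or more, by Pearson correlation, as a description. They were Hk1 (0.997) and E2f1 (0.988) for Csf1r, Igtp (0.989) and Qpctl (0.988) for Itgam, Phc1 (0.974) and Ubqln4 (0.974) for Adgre1, and Ethe1 (0.981) and Baz1b (0.976) for Maf. For Cebpb they were Stx8 (0.970) and Zfp169 (0.951), for Cebpa Ube3c (0.987) and Aftph (0.962), for Cebpd Nf2 (0.968) and Icosl (0.963), and for Spi1 Mtfr1 (0.973) and Trbj1-6 (0.938). These are the highest of all genes compared, and the arrays share numbers and treatment.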

How the data were processed

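The authors deposited log2 intensities per probe set; the submitters' processing notes name RMA and affy (version 1.36.1). Neither probe set definition nor genome build is given in the sources used here. Of 24973 probe sets, 24015 had 1 symbol in the platform annotation, 958 none, and the brightest was kept for 4 symbols with more than 1, leaving 24011 genes. Names came from RefSeq (GRCm38.p6; 23919 matched). No filter on low values was applied.

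Limma 3.58.1 in R 4.3.3 (lmFit, eBayes) compared hepcidin with PBS, two-sided, with Benjamini-Hochberg adjustment over all genes and a threshold of 0.05. Numbers were tested with an F test in a fit with treatment and number. The fits were run on simulated data with independent noise and a number effect in few genes. That noise was set by the fit with treatment and number, so the check leaves out most of the spread between numbers. After subtraction of group means, same-number arrays correlated at 0.344 to 0.548 and other PBS and hepcidin arrays at -0.356 to 0.124. Each pair passed the bound of 0.1, and the numbers in the titles were taken as pairs. The PBS array numbered 3 and the hepcidin array numbered 2 passed it too, at 0.124. Subtracting group means lowers the other correlations where same-number ones are high, so part of this contrast is built in. The number of arrays limits the precision.

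The genes and lists were chosen with earlier results of these data known. Named were all of these genes, relatives and ligands, 2 genes per list with the smallest unadjusted p, and the 2 most alike per gene. Alternatives were the replicate number as a fixed block (meant by replicate block unless called random) or a random block, 3 normalizations, 2 level filters, all probe sets, variance and array weighting and leaving out arrays. Python 3.11.15, pandas 2.3.3 and matplotlib 3.10.9 were used.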

Additional observations from a re-analysis of the deposited data

Results flagged for a closer look

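In 5 of 58 groups of 4 arrays, examined for 29 genes, a single array was set off from the other 3. Its gap to the nearest array took up 0.833 to 0.928 of the range of the group. Chance alone flags about 1 of 20 groups. The rule ignores the size of the gap, which can be small in a tight group. Cebpa stood at 7.15 on the hepcidin array numbered 3, against 7.32 to 7.35 on the others. Csf1r was at 11.59 on the hepcidin array numbered 1 (others 11.91 to 11.97) and Itgam at 11.16 on the PBS array numbered 1 (others 11.57 to 11.63). Ep300 was at 10.44 on the PBS array numbered 1 (others 10.03 to 10.06), and Adgre5 at 10.13 on the hepcidin array numbered 2 (others 10.18 to 10.19).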

How the results depend on the processing

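Of the 8 lineage genes, 0 passed an adjusted p of 0.05 in limma under each alternative run, and Cebpb stayed above 0 in all 20, between 0.217 and 0.409. With the fixed replicate block, which pairs arrays by number, 2 of them (Cebpb and Maf) in place of 1 had an unadjusted p under 0.05, as without both arrays numbered 1 in the paired fit; with the random block 1 did, and Maf was at 0.439. Leaving out 1 array gave 0 to 1. Spi1, near 0, turned positive with median centring (0.009), array weights (0.026) and when number 1 was left out of both groups (0.064, paired or not). Leaving out 1 array moved Spi1 from -0.056 to 0.029, Maf from -0.435 to 0.042, Cebpd from -0.031 to 0.153, Csf1r from -0.050 to 0.164, Itgam from -0.050 to 0.131, Cebpa from -0.118 to -0.003 and Adgre1 from 0.031 to 0.141; the cause was not tested.

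Over all genes, the 0 that passed became 1 with the fixed block, 5 with a random block, 3 among genes with a mean of 6 or more, 1 without both arrays numbered 1 in the paired fit, and 0 to 2 without 1 array (2 without the hepcidin array numbered 2). The 686 at an unadjusted p under 0.05 became 1179 with the fixed and 1193 with the random block, and 1322 in the paired fit without number 1. With filters at a mean of 6 and at the median they became 97 and 181. Fewer genes were tested there, which need not account for the whole fall. The share of the genes tested was not taken, so 2.86% is not a share at a like level. Between numbers, 1345 genes and 1 of the 8 differed, against 2894 and 3 with the filter at 6, 2589 and 3 with that at the median, 2844 and 3 with trend and robust variance, and 166 genes without both arrays numbered 1.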

Other observations

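Replicate numbers separated several other macrophage genes. Of 31 surface and effector genes, 12 passed the limma F test between numbers at an adjusted p of 0.05, against 5.6% of all genes. That share covers dim genes too: among genes with a mean of 6 or more, predicted genes included and tested alone, 2894 passed. Without predicted genes, 8914 genes had such a mean, so these counts form no share. A share at a like level was not taken for the list. Markers of some other cells differed too, in 9 of 14 neutrophil and precursor genes, 3 of 5 monocyte genes and 3 of 7 osteoclast genes. So did 1 of 8 mast cell and basophil genes and 1 of 10 endothelial genes. In the dendritic cell, B cell, T and NK cell, fibroblast and erythroid lists 0 did. The part of these cells in the macrophage genes was not tested. The 4 named next were picked after their values were seen. Fcgr1, the high-affinity Fc receptor gene, stood at 9.01, 10.58, 10.71 and 11.35 on numbers 1 to 4 (adjusted p 0.00134), a ratio of 5.04 between the extremes. The complement gene C1qa stood at 8.47, 10.14, 10.52 and 10.31 (adjusted p 0.00212), and the phosphatidylserine receptor gene Axl at 6.43, 8.15, 7.58 and 8.43 (adjusted p 0.00265). Marco, a scavenger receptor gene, ran the other way, at 6.71 on number 1 and 5.40 to 5.66 on the others (adjusted p 0.0112). With hepcidin, Fcgr1 differed by -0.03 ± 0.55 and C1qa by 0.13 ± 0.525 (unadjusted p 0.953 and 0.807 in limma without the block).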
